A study of Mus musculus with 11 samples.

Results

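The nuclear-encoded subunits of respiratory complexes III, IV and V were followed as a group of 43 genes out of 32285 in the count table. Members were chosen by name, as symbols that begin with *Uqcr*, *Cox4i*, *Cox5*, *Cox6*, *Cox7*, *Cox8* or *Atp5*; symbols of processed copies ending in -ps were to be left out, and there were 0. The set held 8 genes of complex III, 18 of complex IV and 17 of complex V. Of these, 37 had enough counts to be tested and 6 did not. RNA was sequenced from pancreatic islets of 16-week-old mice that had received a high-fat diet for 4 weeks. The samples labelled βZKO_Mip came from mice with a beta-cell-specific deletion of *Zzef1*, and the control samples from their littermates; the labels do not spell out what drives the deletion, and the other islet cells are not said to carry it. Islets were kept for 24 h with 10 µM azoramide, a compound that acts on the unfolded protein response, or with the solvent DMSO. There were 3 labelled-knockout libraries with azoramide, 2 labelled-knockout libraries with DMSO, 3 control libraries with azoramide and 3 control libraries with DMSO. Islets of no fewer than 3 mice were pooled per library. Whether any mouse went into more than 1 library is not labelled, so p-values measure the spread between these libraries.

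Libraries held 16832800 to 19501813 counts. Levels are given as CPM, counts scaled to library size with TMM factors. *Zzef1* itself read 72.1, 77.7 and 68.7 CPM in azoramide libraries labelled knockout and 79.4 and 83.5 CPM in DMSO libraries labelled knockout, against 68.1, 64.3 and 67.4 CPM in control azoramide libraries and 85.4, 109.7 and 96.5 CPM in control DMSO libraries. The difference between labelled knockout and control did not pass the test with DMSO (log2 fold change -0.26, SE 0.09, adjusted p = 0.999) or with azoramide (0.13, SE 0.08, adjusted p = 0.968), so the genotype is called by its label throughout. With DMSO both labelled-knockout libraries lay below all 3 control libraries, as for 9.57% of all genes tested, and the unadjusted edgeR p was 0.00927. Between treatments, *Zzef1* was called lower with azoramide in control islets (-0.55, adjusted p = 3.46e-05). In labelled-knockout islets it was not called (-0.16, adjusted p = 0.153). Whether the deletion leaves the counted transcript in place or the labels do not match the genotype cannot be told from these counts, and every value of labelled knockout against control carries that limit. Transcripts of islet hormones were present in all 11 libraries: the summed level of 10 beta-cell markers lay between 130209 and 192981 CPM. On a principal component analysis the first component separated the treatments, and azoramide library 3 of the labelled knockout and DMSO library 2 of the control lay at the ends of the second.

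Complex III passes electrons from ubiquinol to cytochrome c, complex IV passes them on to oxygen, and both move protons across the inner mitochondrial membrane. Complex V, the ATP synthase, lets the protons back through a rotating ring of c subunits and makes ATP in its F1 head. Most of their subunits are encoded in the nucleus and a few in the mitochondrial genome. In beta cells the ATP made from glucose closes potassium channels and so triggers insulin release, which makes these complexes a link between glucose and secretion.

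In azoramide-treated and DMSO-treated islets alike, the tested members were expressed at moderate to high levels. Per kilobase of mRNA, their median level was 161 CPM per kb in labelled-knockout azoramide, 93.0 CPM per kb in labelled-knockout DMSO, 175 CPM per kb in control azoramide and 102 CPM per kb in control DMSO islets. In control DMSO islets *Atp5b*, the catalytic beta subunit of the F1 head, had 251 CPM per kb, *Atp5l*, the g subunit in the membrane, 245 CPM per kb, and *Uqcrq*, a small subunit of complex III, 226 CPM per kb. At the low end of the tested members stood *Cox6a2*, the heart and skeletal muscle isoform of subunit 6A, with 10.98 CPM per kb. *Atp5l* stands less firmly in this order, because 69.0% of the 100-base stretches of its mRNA also occur in transcripts of other genes.

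With azoramide, transcripts of nearly all tested subunits were more abundant, in both genotypes. In libraries labelled knockout, 35 of the 37 tested members were higher with azoramide than with DMSO at an adjusted p under 0.05, and 0 were lower; of all 15093 genes tested, 20.0% were called higher and 19.8% lower in that comparison. In control islets 36 of 37 were higher and 0 lower, against 19.3% of all genes called higher and 19.8% called lower. The median log2 fold change over the tested members was 0.73, a 1.66-fold difference, in labelled-knockout islets and 0.76, a 1.69-fold difference, in control islets, while the medians of all genes tested were -0.00 and -0.02. For 36 members in labelled-knockout islets and 35 in control islets, every azoramide library lay above every DMSO library of the same genotype, which held for 30.2% and 23.8% of all genes tested. At least 2-fold higher were 8 members in labelled-knockout islets and 5 in control islets, against 1.80% and 0.908% of all genes.

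**Figure D1:**
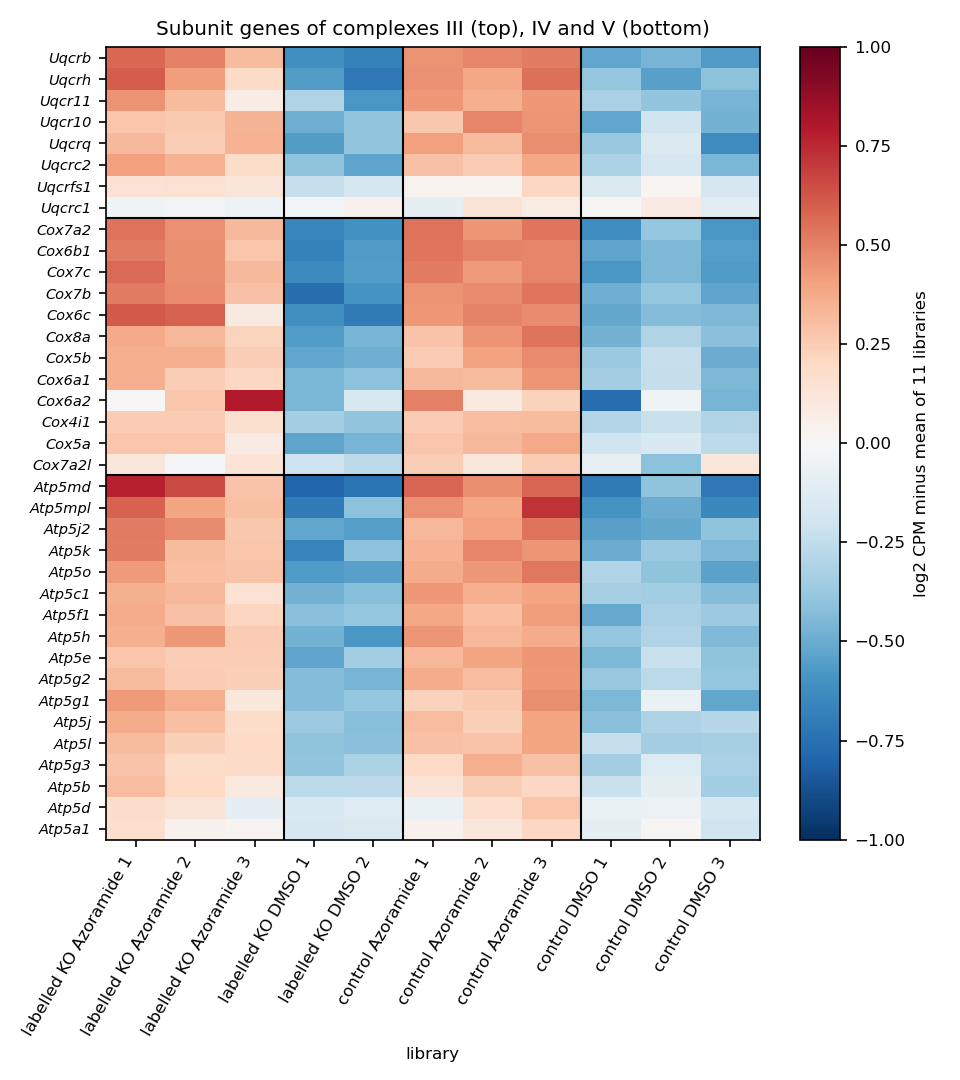
Each row is a tested member, ordered by complex, and each column a library; the colour is log2 CPM minus that gene's mean over the 11 libraries. The azoramide columns of both genotypes lie above the gene means for 35 to 37 of the 37 members, the DMSO columns for 0 to 3.

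Summed over the tested members, the level was 5463, 5189 and 4844 CPM in labelled-knockout azoramide libraries and 3267 and 3311 CPM in labelled-knockout DMSO libraries. In control islets it was 5216, 5298 and 5548 CPM with azoramide and 3456, 3699 and 3337 CPM with DMSO. The azoramide and DMSO libraries did not overlap in either genotype. Among the azoramide libraries the lowest sum was in labelled-knockout library 3, and among the DMSO libraries the highest was in control library 2, the same pair that stood apart in the principal component analysis. Without both, 36 members were higher with azoramide in each genotype, with median log2 fold changes of 0.79 in labelled-knockout and 0.81 in control islets. Members made up 0.460% to 0.531% of all counts in labelled-knockout azoramide libraries and 0.352% to 0.355% in labelled-knockout DMSO libraries, against 0.479% to 0.514% in control azoramide and 0.357% to 0.383% in control DMSO libraries. In these bulk samples, more cells of a type and more RNA per cell cannot be told apart.

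**Figure D2:**
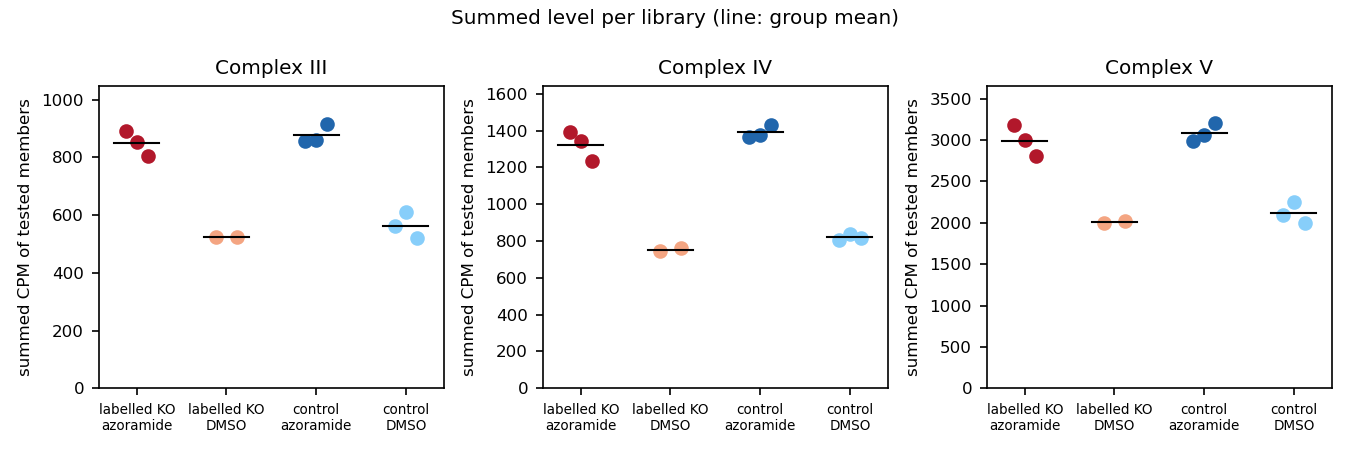
Points are libraries, the vertical axis is the CPM summed over the tested members of a complex, and lines are group means. In each complex all azoramide libraries lie above all DMSO libraries, and in complex IV both labelled-knockout DMSO libraries lie below the 3 control DMSO libraries.

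In complex III, 7 of the 8 members were higher with azoramide in each genotype, with median log2 fold changes of 0.76 in labelled-knockout and 0.78 in control islets. The exception was *Uqcrc1* (chr9:108936633-108949623, GRCm38, plus strand), 1 of the 2 core subunits that face the matrix. *Uqcrc1* had 84.9, 85.8 and 84.4 CPM in the azoramide libraries labelled knockout, against 85.6 and 89.9 CPM in their DMSO libraries. In control islets its levels were 81.8, 95.7 and 92.1 CPM with azoramide and 88.0, 92.2 and 81.3 CPM with DMSO. These values overlap between treatments in both genotypes. The log2 fold change of *Uqcrc1* was -0.04 (SE 0.07, adjusted p = 0.671) in labelled-knockout and 0.04 (SE 0.07, adjusted p = 0.637) in control islets. Its value turned with the scaling: with plain library totals it was called lower in labelled-knockout islets (-0.20, adjusted p = 0.0493), and with exonic length and GC content corrected by an offset it was called higher in control islets (0.20, adjusted p = 0.0284).

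*Uqcrc2*, the other core subunit, behaved differently. It had 206, 197 and 176 CPM in the azoramide libraries labelled knockout, against 117 and 108 CPM in their DMSO libraries. Control libraries had 190.4, 185 and 204 CPM with azoramide and 125, 138 and 113 CPM with DMSO. The treatments did not overlap, and the log2 fold change was 0.78 (SE 0.09, adjusted p = 3.53e-06) in labelled-knockout and 0.62 (SE 0.08, adjusted p = 8.54e-06) in control islets. Both core subunits are built into the complex in equal number, and the ratio of their counts needs no scaling between libraries. *Uqcrc2* had 2.43, 2.3 and 2.09 counts per count of *Uqcrc1* in azoramide libraries labelled knockout, against 1.37 and 1.2 in DMSO libraries labelled knockout. In control libraries the ratio was 2.33, 1.94 and 2.21 with azoramide and 1.42, 1.5 and 1.4 with DMSO. All 6 azoramide libraries therefore had a higher ratio than all 5 DMSO libraries. With the exonic length and GC offset the log2 fold change was 0.50 in labelled-knockout and 0.37 in control islets for *Uqcrc2* and 0.15 in labelled-knockout and 0.20 in control islets for *Uqcrc1*. This pair was picked after its values were seen and carries no test, and 22.7% of the 100-base stretches of the *Uqcrc2* mRNA are shared with *Pdzd9*, a gene that averaged 3.6 counts per library.

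Without a length correction, the largest differences in complex III were in small subunits. *Uqcrb*, known as a ubiquinone-binding subunit, had 139, 133 and 117 CPM in the azoramide libraries labelled knockout, against 61.3 and 58.8 CPM in their DMSO libraries. The control values were 128, 131 and 134 CPM with azoramide, against 65.3, 68.0 and 63.2 CPM with DMSO. Every azoramide library lay above every DMSO library of its genotype, with a log2 fold change of 1.11 (SE 0.08, adjusted p = 4.42e-08) in labelled-knockout and 0.999 (SE 0.07, adjusted p = 7.44e-09) in control islets. With exonic length and GC content as an offset in the fit the *Uqcrb* value was 0.33 in labelled-knockout and 0.32 in control islets, and with an mRNA length and GC offset, added after the data were seen, it was 0.31 in labelled-knockout and 0.31 in control islets; *Uqcrc2* then had 0.59 in labelled-knockout and 0.45 in control islets, the larger of the pair. *Uqcrh*, the hinge protein next to cytochrome c1, had 104, 91.7 and 78.6 CPM in the azoramide libraries labelled knockout, against 46.5 and 41.7 CPM in their DMSO libraries. With azoramide the control libraries read 94.4, 89.7 and 101 CPM, against 52.5, 47.1 and 51.7 CPM with DMSO. Here, too, the treatments were apart in both genotypes, and azoramide library 3 of the labelled knockout was the lowest of the azoramide libraries for both genes. The *Uqcrh* log2 fold change was 1.05 (SE 0.10, adjusted p = 1.43e-06) in labelled-knockout and 0.91 (SE 0.09, adjusted p = 1.20e-06) in control islets.

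*Uqcrq*, the member of complex III with the highest mean level per kilobase over all libraries, had 184, 175 and 188 CPM in the azoramide libraries labelled knockout, against 100.03 and 112 CPM in their DMSO libraries. Azoramide-treated control islets had 196, 183 and 203 CPM and DMSO-treated ones 113, 134 and 95.6 CPM. The groups were again apart, and the log2 fold change was 0.78 (SE 0.11, adjusted p = 6.35e-05) in labelled-knockout and 0.77 (SE 0.10, adjusted p = 2.50e-05) in control islets. *Uqcr10* (0.73 and 0.79 in labelled-knockout and control islets) and *Uqcr11* (0.73 and 0.80), 2 further small subunits, lay close to it on the log2 scale. *Uqcrfs1*, the Rieske iron-sulfur protein that takes electrons from ubiquinol, differed least among the called members of the complex. It had 69.5, 69.9 and 68.5 CPM in the azoramide libraries labelled knockout, against 53.6 and 55.6 CPM in their DMSO libraries. In control islets its levels were 64.3, 64.4 and 72.6 CPM with azoramide and 56.9, 63.7 and 56.0 CPM with DMSO. The treatments did not overlap, but in control islets the highest DMSO library lay just under the lowest azoramide library. Its log2 fold change was 0.34 (SE 0.08, adjusted p = 0.00166) in labelled-knockout and 0.19 (SE 0.07, adjusted p = 0.0359) in control islets. In control islets the call of *Uqcrfs1* was lost under 10 of 20 alternatives, among them leaving out azoramide library 3 (adjusted p = 0.2), DMSO library 1 (0.122) or DMSO library 3 (0.123), and with the exonic length and GC offset its value turned to -0.16.

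In complex IV, all 12 tested members were higher with azoramide in both genotypes, with medians of 0.83 in labelled-knockout and 0.78 in control islets on the log2 scale. *Cox7a2*, the widely expressed isoform of subunit 7A, had 113, 107 and 97.2 CPM in the azoramide libraries labelled knockout, against 49.4 and 51.1 CPM in their DMSO libraries. Control libraries had 113, 105 and 113 CPM with azoramide and 50.5, 59.4 and 51.9 CPM with DMSO. Azoramide and DMSO libraries were far apart, with a log2 fold change of 1.07 (SE 0.08, adjusted p = 9.10e-08) in labelled-knockout and 1.03 (SE 0.07, adjusted p = 1.42e-08) in control islets. *Cox6b1*, a subunit on the side of the intermembrane space and the one with the highest mean level per kilobase over all libraries in complex IV, though *Cox8a* stood slightly above it with DMSO, had 157, 152 and 134 CPM in the azoramide libraries labelled knockout, against 69.0 and 74.5 CPM in their DMSO libraries. The control values were 160.0, 155 and 154 CPM with azoramide, against 76.3, 80.7 and 75.2 CPM with DMSO. In both genes the lowest azoramide library was far above the highest DMSO library. The *Cox6b1* log2 fold change was 1.04 (SE 0.07, adjusted p = 5.66e-08) in labelled-knockout and 1.02 (SE 0.06, adjusted p = 6.35e-09) in control islets.

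*Cox7c*, *Cox7b* and *Cox6c*, single-span subunits around the catalytic core, came close to these, with log2 fold changes of 1.05 and 1.01, 1.11 and 0.95 and 1.10 and 0.93 in labelled-knockout and control islets. *Cox8a* (0.83 and 0.83), *Cox5b* (0.83 and 0.74), *Cox6a1* (0.71 and 0.70) and *Cox4i1* (0.59 and 0.56) followed. All of these but *Cox5b* are the widely expressed forms of their subunits. *Cox4i1*, the regulatory subunit 4, had 172, 171 and 160.4 CPM in the azoramide libraries labelled knockout, against 114 and 109 CPM in their DMSO libraries. With azoramide the control libraries read 171, 178 and 179 CPM, against 117, 123 and 117 CPM with DMSO. Its treatments stayed apart although its difference was among the smaller ones. *Cox5a*, a matrix-facing subunit, had 45.7, 45.5 and 39.8 CPM in the azoramide libraries labelled knockout, against 26.1 and 27.3 CPM in their DMSO libraries. Azoramide-treated control islets had 45.5, 47.0 and 48.8 CPM and DMSO-treated ones 32.7, 33.8 and 31.3 CPM. The log2 fold change of *Cox5a* was 0.71 (SE 0.09, adjusted p = 7.95e-06) in labelled-knockout and 0.53 (SE 0.08, adjusted p = 3.49e-05) in control islets. With the exonic length and GC offset the *Cox5a* value was 0.26 in labelled-knockout and 0.13 in control islets, and the call in control islets ended (adjusted p = 0.171). With the mRNA length and GC offset it was 0.06 in labelled-knockout and -0.04 in control islets, and neither was called.

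*Cox7a2l*, also called Scaf1, which joins complexes III and IV into supercomplexes, had 143, 131 and 145 CPM in the azoramide libraries labelled knockout, against 114 and 110.2 CPM in their DMSO libraries. In control islets its levels were 156, 143 and 158 CPM with azoramide and 125, 99.5 and 143 CPM with DMSO. Its log2 fold change was 0.31 (SE 0.11, adjusted p = 0.0427) in labelled-knockout and 0.32 (SE 0.10, adjusted p = 0.0244) in control islets, the smallest of the complex. The highest control DMSO library, library 3, came close to the lowest control azoramide library. Leaving out azoramide library 1 of the control (adjusted p = 0.0593 in labelled-knockout and 0.0702 in control islets) was enough to end the call in both genotypes, and so was control azoramide library 3 (0.0562 and 0.0818), control DMSO library 1 (0.058 and 0.0528) or plain library totals. In labelled-knockout islets the same held for control azoramide library 2 (0.0515), azoramide libraries 1 (0.107) and 3 (0.114) and DMSO libraries 1 (0.121) and 2 (0.202) of that genotype. With the exonic length and GC offset its value was -0.02 in labelled-knockout and -0.00 in control islets.

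Several subunits of complex IV come in isoforms encoded by separate genes. The muscle form *Cox6a2* was the only tissue-restricted isoform with enough counts to test. It had 9.76, 11.9 and 17.02 CPM in the azoramide libraries labelled knockout, against 7.13 and 8.77 CPM in their DMSO libraries. Control libraries had 13.9, 10.5 and 11.5 CPM with azoramide and 5.79, 9.51 and 7.10 CPM with DMSO. *Cox6a1*, its widely expressed counterpart, averaged 102 ± 5.74, 62.7 ± 1.28, 109 ± 5.29 and 66.8 ± 4.89 CPM in labelled-knockout azoramide, labelled-knockout DMSO, control azoramide and control DMSO islets (SD, n = 3, 2, 3 and 3). Per kilobase of mRNA in control DMSO islets, *Cox6a1* had 117 and *Cox6a2* 10.98 CPM per kb. *Cox6a2* had a log2 fold change of 0.69 (SE 0.24, adjusted p = 0.0345) in labelled-knockout and 0.68 (SE 0.22, adjusted p = 0.0238) in control islets, with the widest standard errors among the members. Its calls were lost under 9 of 20 alternatives in labelled-knockout islets, where leaving out azoramide library 2 or 3, DMSO library 1 or 2 or control azoramide library 3 gave adjusted p of 0.0533, 0.112, 0.221, 0.0737 and 0.0503. In control islets 7 of 20 alternatives ended the call, among them leaving out azoramide library 1 (0.0909) or 3 (0.0528) or DMSO library 1 (0.0914) or 3 (0.0761). The 8 muscle markers measured beside it summed to at most 3.22 CPM in any library, and *Myog* was at 0 in all of them.

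The 6 untested members were all isoforms of complex IV known from lung, muscle, brown fat or testis. *Cox4i2*, the lung isoform, had 24 counts over all 11 libraries, *Cox6b2* 36, *Cox7a1* 26, *Cox7b2* 6 and *Cox8b* 2, and *Cox8c* had 0. No library held more than 10 counts of any of them, with *Cox6b2* reaching 10 in DMSO library 1 of the labelled knockout. *Cox7a1*, the heart and muscle isoform of subunit 7A, had 5, 4 and 5 counts in labelled-knockout azoramide libraries, 1 and 3 in labelled-knockout DMSO libraries, 0, 0 and 3 in control azoramide libraries and 1, 2 and 2 in control DMSO libraries. At this depth no difference between groups could be read from these genes.

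**Figure D3:**
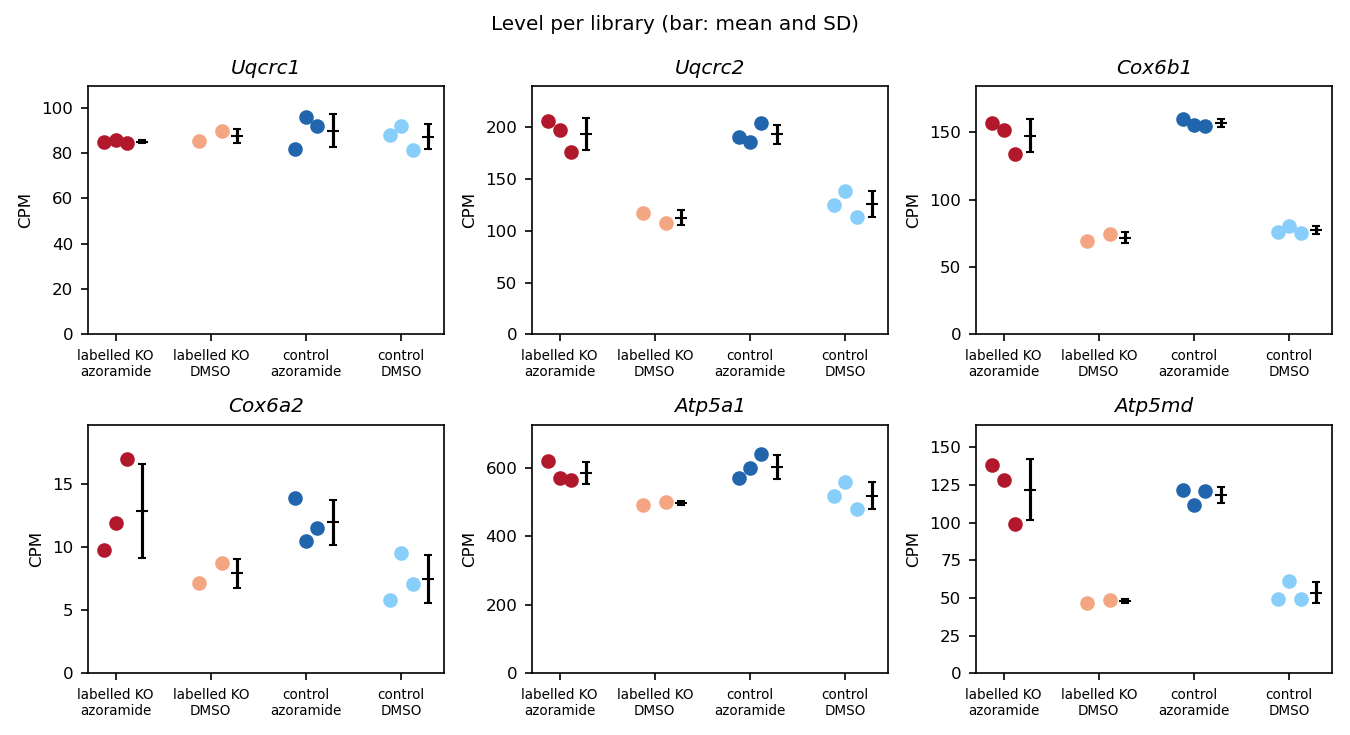
Points are libraries and bars the mean with SD of 6 members, in CPM. *Uqcrc2*, *Cox6b1* and *Atp5md* separate azoramide from DMSO in both genotypes, *Atp5a1* and *Cox6a2* separate them with narrow gaps, and *Uqcrc1* overlaps.

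In complex V, 16 of 17 members were higher with azoramide in labelled-knockout islets and 17 of 17 in control islets, with medians of 0.71 and 0.74 on the log2 scale. The F1 head and central stalk differed least: the medians over its 5 genes were 0.47 in labelled-knockout and 0.41 in control islets. *Atp5a1*, the alpha subunit of the head, had 620.0, 569 and 564 CPM in the azoramide libraries labelled knockout, against 492 and 500.5 CPM in their DMSO libraries. The control values were 569.6, 599 and 639 CPM with azoramide, against 517, 558 and 481 CPM with DMSO. *Atp5a1* thus had a log2 fold change of 0.24 (SE 0.07, adjusted p = 0.0154) in labelled-knockout and 0.22 (SE 0.06, adjusted p = 0.013) in control islets. The treatments did not overlap, but the gap was narrow, and the call ended with plain library totals in both genotypes. It also ended in labelled-knockout islets without azoramide library 1 (adjusted p = 0.0777), DMSO library 1 (0.109) or DMSO library 2 (0.083), and in control islets without azoramide library 3 (0.0826) or DMSO library 3 (0.0522).

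*Atp5b*, the catalytic subunit, had 691, 639.8 and 596 CPM in the azoramide libraries labelled knockout, against 461 and 465 CPM in their DMSO libraries. With azoramide the control libraries read 608, 662 and 642 CPM, against 477, 524 and 439.5 CPM with DMSO. The treatments did not overlap in either genotype, and the log2 fold change was 0.47 (SE 0.08, adjusted p = 1.29e-04) in labelled-knockout and 0.41 (SE 0.07, adjusted p = 1.60e-04) in control islets. *Atp5d*, the delta subunit of the central stalk, had 79.5, 77.2 and 65.9 CPM in the azoramide libraries labelled knockout, against 63.4 and 64.3 CPM in their DMSO libraries. Azoramide-treated control islets had 67.2, 79.1 and 85.3 CPM and DMSO-treated ones 67.1, 67.5 and 62.3 CPM. The log2 fold change of *Atp5d* was 0.22 (SE 0.09, adjusted p = 0.0795) in labelled-knockout and 0.23 (SE 0.08, adjusted p = 0.0364) in control islets, so that it passed the test in control islets, where 1 azoramide library lay within the range of the DMSO libraries, and missed it in labelled-knockout islets, where the ranges did not overlap. Without azoramide library 3 the labelled-knockout value was 0.30 (adjusted p = 0.0143), without control azoramide library 1 it was 0.22 (0.0462), and with the exonic length and GC offset it was 0.32 (0.0111), each of them called. The call in control islets ended without azoramide library 2 (0.106) or 3 (0.203), DMSO library 1 (0.0634) or 3 (0.115) of the control, or DMSO library 1 (0.0524) or 2 (0.0526) of the labelled knockout. *Atp5c1*, the gamma subunit that turns inside the head, and *Atp5e*, the epsilon subunit beside it, had larger log2 fold changes, 0.73 and 0.77 and 0.69 and 0.74 in labelled-knockout and control islets.

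The 3 head and stalk subunits that span this range can be compared within a library. *Atp5c1* had 0.35, 0.375 and 0.332 counts per count of *Atp5a1* in azoramide libraries labelled knockout, against 0.248 and 0.252 in DMSO libraries labelled knockout. In control libraries the ratio was 0.401, 0.364 and 0.348 with azoramide and 0.26, 0.239 and 0.26 with DMSO. *Atp5b* per count of *Atp5a1* was 1.11, 1.13 and 1.06 in azoramide and 0.937 and 0.928 in DMSO libraries labelled knockout, and 1.07, 1.11 and 1.01 in azoramide and 0.922, 0.94 and 0.914 in DMSO control libraries. Both ratios were higher in every azoramide library than in any DMSO library, so without a length correction the head subunits differed unequally between treatments. These pairs, too, were picked after their values were seen and carry no test. With the mRNA length and GC offset the log2 fold change was 0.43 in labelled-knockout and 0.49 in control islets for *Atp5c1* and 0.30 in labelled-knockout and 0.27 in control islets for *Atp5a1*. For *Atp5b* it was 0.34 in labelled-knockout and 0.29 in control islets, close to that of *Atp5a1*. With the exonic length and GC offset *Atp5b* had 0.43 and 0.38 and *Atp5a1* 0.21 and 0.18 in labelled-knockout and control islets.

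The membrane ring of complex V is made of c subunits whose mature protein is encoded by *Atp5g1*, *Atp5g2* and *Atp5g3* alike. *Atp5g1* had 114, 109.5 and 91.7 CPM in the azoramide libraries labelled knockout, against 63.1 and 65.3 CPM in their DMSO libraries. In control islets its levels were 100.3, 102 and 118 CPM with azoramide and 62.4, 81.6 and 59.5 CPM with DMSO. The azoramide libraries were above the DMSO libraries, with DMSO library 2 of the control the highest with DMSO. *Atp5g2* had 134, 128 and 126 CPM in the azoramide libraries labelled knockout, against 79.2 and 77.7 CPM in their DMSO libraries. Control libraries had 139, 133 and 145 CPM with azoramide and 82.4, 88.8 and 82.0 CPM with DMSO. *Atp5g3* had 135, 125 and 126 CPM in the azoramide libraries labelled knockout, against 84.3 and 88.9 CPM in their DMSO libraries. The control values were 127, 142 and 135 CPM with azoramide, against 87.3, 101 and 88.5 CPM with DMSO. For *Atp5g2* and *Atp5g3*, too, azoramide and DMSO libraries did not overlap. The log2 fold changes were 0.71 and 0.65 for *Atp5g1*, 0.72 and 0.72 for *Atp5g2* and 0.57 and 0.55 for *Atp5g3* in labelled-knockout and control islets. *Atp5g2* is the least certain of them as a single gene, since 86.4% of the 100-base stretches of its mRNA also occur in other transcripts, chiefly of the copy *Gm10175*; 0% of those of *Atp5g3* do. The call of *Atp5g3* ended only with the mRNA length and GC offset, where its log2 fold change was 0.06 in labelled-knockout and 0.09 in control islets.

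The peripheral stalk, which keeps the head from turning with the ring, is made of *Atp5f1*, *Atp5h*, *Atp5j* and *Atp5o*. All 4 were higher in both genotypes, with medians of 0.78 in labelled-knockout and 0.76 in control islets. *Atp5o*, the subunit that caps the head, differed most (0.89 and 0.86) and *Atp5j*, coupling factor 6, least (0.68 and 0.65). *Atp5h* (0.87 and 0.76) and *Atp5f1*, the b subunit (0.69 and 0.76), lay between them.

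The small membrane subunits, which hold ATP synthase dimers together and shape the cristae, had the highest medians of complex V without a length correction, 0.96 in labelled-knockout and 0.91 in control islets over 5 genes. With the exonic length and GC offset, the median gene was *Atp5mpl* for these subunits and *Atp5g2* for the c ring. Their values were 0.60 and 0.70 in labelled-knockout and 0.76 and 0.65 in control islets. With the mRNA length and GC offset, the median genes were *Atp5k* and *Atp5g2*. These had 0.50 and 0.50 in labelled-knockout and 0.47 and 0.47 in control islets. *Atp5md*, also called Dapit or Usmg5, had 138, 128 and 99.0 CPM in the azoramide libraries labelled knockout, against 46.9 and 48.8 CPM in their DMSO libraries. With azoramide the control libraries read 122, 112 and 121 CPM, against 49.6, 61.4 and 49.5 CPM with DMSO. The DMSO libraries formed a narrow low range, and azoramide library 3 of the labelled knockout was the lowest with azoramide. Its log2 fold change, 1.35 (SE 0.14, adjusted p = 1.60e-05) in labelled-knockout and 1.14 (SE 0.12, adjusted p = 1.81e-05) in control islets, was the largest among the tested members in both genotypes without a length correction. With the exonic length and GC offset the *Atp5md* value was 0.93 in labelled-knockout and 0.78 in control islets, below that of *Cox6c* (1.004 in labelled-knockout and 0.85 in control islets), and with the mRNA length and GC offset it was 0.53 in labelled-knockout and 0.43 in control islets, below that of *Atp5g1* (0.69 in labelled-knockout and 0.64 in control islets). *Atp5mpl*, the small proteolipid, had 46.1, 40.2 and 37.8 CPM in the azoramide libraries labelled knockout, against 18.8 and 23.1 CPM in their DMSO libraries. Azoramide-treated control islets had 42.1, 40.1 and 50.6 CPM and DMSO-treated ones 20.2, 21.7 and 19.6 CPM. Again the treatments did not overlap, and the log2 fold change of *Atp5mpl* was 0.98 (SE 0.12, adjusted p = 9.45e-06) in labelled-knockout and 1.11 (SE 0.11, adjusted p = 5.90e-07) in control islets. *Atp5j2*, *Atp5k* and *Atp5l*, the f, e and g subunits, had log2 fold changes of 0.96 and 0.91, 0.90 and 0.86 and 0.66 and 0.62 in labelled-knockout and control islets.

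*Atp5l*, the member of complex V with the highest mean level per kilobase over all libraries, though *Atp5b* stood above it with DMSO, had 204, 193 and 188 CPM in the azoramide libraries labelled knockout, against 124 and 123 CPM in their DMSO libraries. In control islets its levels were 201, 200.4 and 215 CPM with azoramide and 140.2, 129 and 130.5 CPM with DMSO. With the mRNA length and GC offset its log2 fold change was -0.14 in labelled-knockout and -0.07 in control islets, neither of them called. Counts of *Atp5md* per count of *Atp5b* were 0.2, 0.201 and 0.166 in labelled-knockout azoramide libraries and 0.102 and 0.105 in labelled-knockout DMSO libraries, and 0.2, 0.169 and 0.189 in control azoramide and 0.104, 0.117 and 0.113 in control DMSO libraries. The same pattern held in complex IV, where *Cox6b1* had 0.913, 0.888 and 0.835 counts per count of *Cox4i1* in labelled-knockout azoramide and 0.607 and 0.681 in labelled-knockout DMSO libraries, and 0.934, 0.873 and 0.865 in control azoramide and 0.65, 0.654 and 0.643 in control DMSO libraries. Both pairs were chosen after their values were seen. A ratio within a library keeps any difference that goes with mRNA length: with the mRNA length and GC offset the log2 fold change of *Atp5b* was 0.34 in labelled-knockout and 0.29 in control islets, close to that of *Atp5md* given above. For *Cox6b1* it was 0.61 in labelled-knockout and 0.62 in control islets, and for *Cox4i1* 0.35 in labelled-knockout and 0.31 in control islets.

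**Figure D4:**
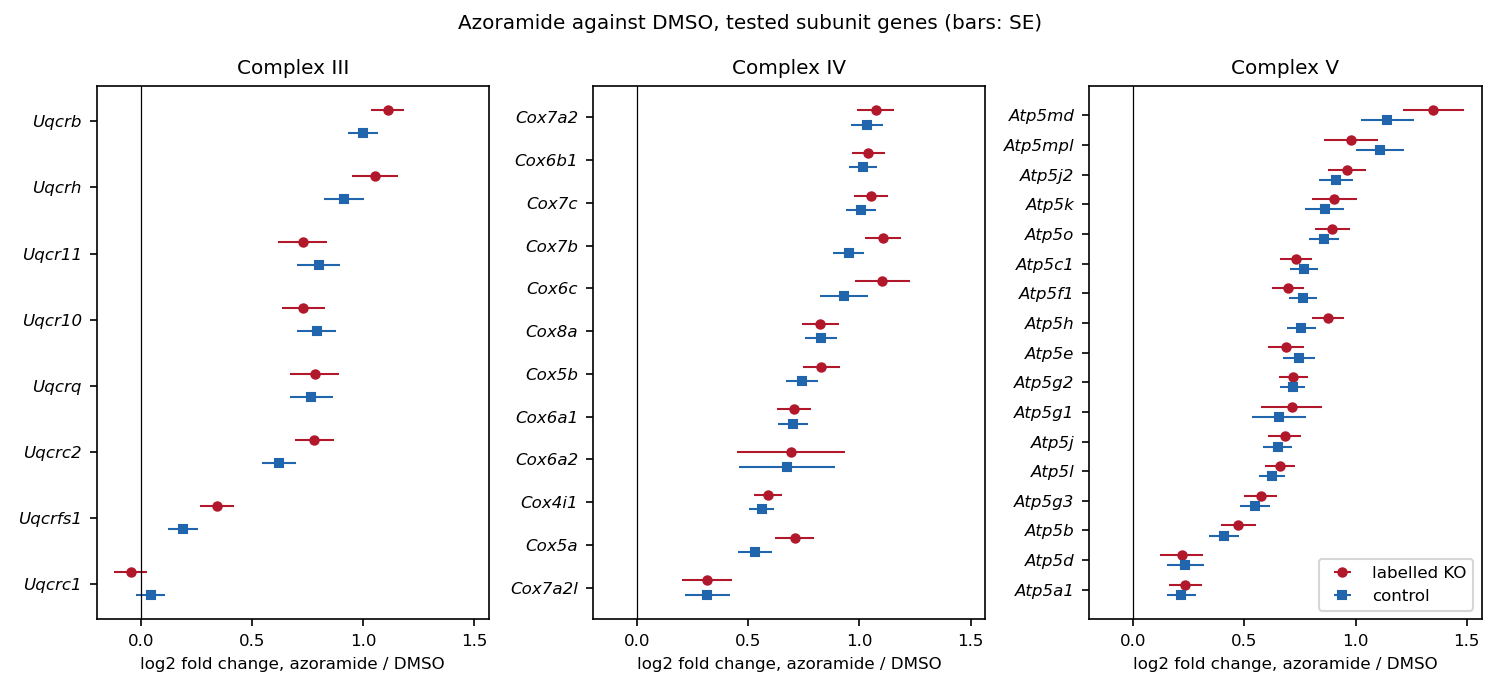
Points are log2 fold changes, azoramide over DMSO, of the tested members of each complex in labelled-knockout and control islets, and bars are their SE. The 2 genotypes lie close together for each gene, and *Uqcrc1* is the member nearest 0.

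The 2 genotypes ranked the members much alike. Across the 37 tested members, the log2 fold changes in labelled-knockout and control islets had a Pearson's r of 0.96 and a Spearman's rho of 0.93, a description over genes that share the same libraries within each genotype. Genes without a near-identical copy or an overlapping neighbour gave the same picture: of the 19 tested members with no 100-base stretch shared with other transcripts, 17 were higher in labelled-knockout and 18 in control islets, with medians of 0.73 and 0.79. Of the called members, 28 of 35 in labelled-knockout and 28 of 36 in control islets kept their call under each of the 20 alternatives run.

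The members have short mRNAs, and short mRNAs in general were higher with azoramide. Of the 37 tested members, 27 fell in the shortest of 10 equal bins of all tested genes, from 168 to 986 bases. In that bin the median log2 fold change over all genes was 0.45 in labelled-knockout and 0.42 in control islets, and 41.6% and 43.4% of its genes were called higher; in the longest bin the medians were -0.26 and -0.29. Among the members themselves, the longer the mRNA the smaller the difference: the Pearson's r of log2 fold change with log2 mRNA length was -0.57 in labelled-knockout and -0.63 in control islets over 37 genes, against -0.32 and -0.36 over all genes. Genes of 1 library set share depth and base composition, so these correlations describe and carry no p. When exonic length and GC content entered the fit as an offset, 33 members were higher in each genotype, 32 of them among those higher without it, and the medians were 0.50 in labelled-knockout and 0.54 in control islets. With the offset built on mRNA length, 29 members were higher in each, with medians of 0.42 and 0.40. The part of mRNA length in the result beyond these fits was not tested.

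**Figure D5:**
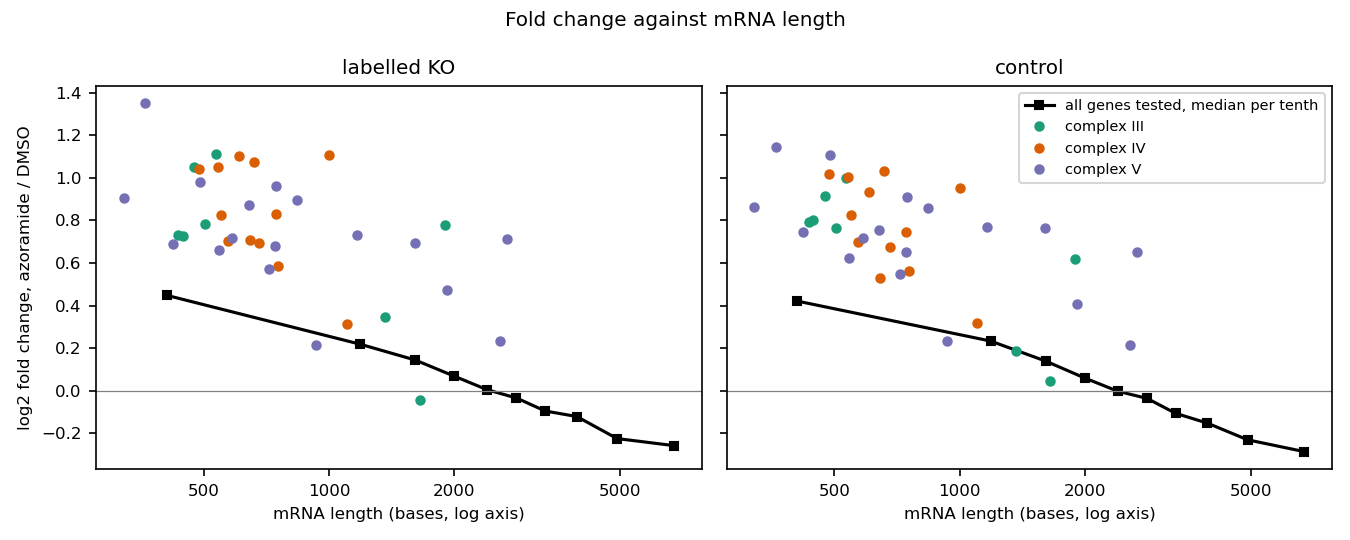
Coloured points are the tested members by complex, with mRNA length in bases on a log axis and the log2 fold change, azoramide over DMSO, on the vertical axis; black squares are medians of all tested genes in 10 bins of length. Most members sit above the line of all genes of like length, with *Uqcrc1* and *Atp5d* below it in both genotypes and *Uqcrfs1* about on it in control islets.

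Other measures moved with treatment as well, cell type markers among them. Genes of the mitochondrial genome took 7.60% to 7.98% of counts in labelled-knockout azoramide libraries and 5.17% to 5.19% in labelled-knockout DMSO libraries, against 7.16% to 8.51% in control azoramide and 5.38% to 5.50% in control DMSO libraries. The 7 alpha-cell markers summed to between 23779 and 25551 CPM in labelled-knockout azoramide and between 14591 and 16606 CPM in labelled-knockout DMSO libraries; in control libraries the ranges were 24560 to 27925 CPM with azoramide and 14515 to 16083 CPM with DMSO. Of these 7, 6 were called higher in labelled-knockout and 5 in control islets. *Gcg* made up most of the alpha-cell sum. The 10 beta-cell markers summed to 141132 to 174977 CPM in labelled-knockout azoramide and 130209 to 133401 CPM in labelled-knockout DMSO libraries, and to 152242 to 192981 CPM in control azoramide and 139961 to 142607 CPM in control DMSO libraries; 3 were called higher and 4 lower in labelled-knockout islets, and 4 higher and 4 lower in control islets. Sums of the 8 macrophage markers were 62.9 to 116 CPM in labelled-knockout azoramide and 49.6 to 49.99 CPM in labelled-knockout DMSO libraries, and 61.6 to 79.5 CPM in control azoramide and 44.2 to 57.7 CPM in control DMSO libraries, with 2 called higher in each genotype. Only *Cd68* separated the treatments in both genotypes, with 42.4, 40.0 and 33.9 CPM against 13.3 and 14.9 CPM in labelled-knockout islets. In control islets *Cd68* had 26.8, 36.9 and 36.7 CPM with azoramide and 19.6, 17.9 and 11.1 CPM with DMSO. *Cd14* overlapped in labelled-knockout islets. *Adgre1*, *Csf1r*, *C1qa*, *C1qb*, *C1qc* and *Lyz2* overlapped between treatments in both genotypes. Summed levels of the 2 PP-cell, the 7 ductal and the 7 adipocyte and brown fat markers were also higher in every azoramide library than in any DMSO library of the same genotype. In labelled-knockout islets 1 marker of each list was called higher, and in control islets 2 PP-cell, 2 ductal and 0 adipocyte markers. Most of the ductal sum came from *Spp1*, *Krt7* and *Epcam*, of which only *Epcam* separated the treatments in both genotypes. *Krt7* overlapped between treatments in labelled-knockout islets and *Spp1* in control islets. *Krt19*, *Sox9*, *Muc1* and *Cftr* overlapped in both genotypes. *Fabp4* made up most of the adipocyte sum. The summed level of the 7 endothelial markers was lower with azoramide, and 3 of them were called lower in each genotype, with summed levels of 227 to 263 CPM in labelled-knockout azoramide and 309 to 321 CPM in labelled-knockout DMSO libraries, and 219.6 to 282 CPM in control azoramide and 309 to 318 CPM in control DMSO libraries. The 12 acinar markers in the table spread widely within groups, from 918 to 4733 CPM in labelled-knockout azoramide and 481 to 2031 CPM in labelled-knockout DMSO libraries, and from 1473 to 3817 CPM in control azoramide and 778 to 4746 CPM in control DMSO libraries. Among the azoramide libraries the lowest acinar sum was in labelled-knockout library 3. The highest among the DMSO libraries was in control library 2. Both libraries lay at the ends of the second principal component. The part of the cell type markers in the members' result was not tested.

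No member passed the test between the genotypes. With DMSO, 34 of the 37 tested members had a log2 fold change below 0, labelled knockout over control, against 51.0% of all genes, with a median of -0.10; 0 passed the test, as among all genes (0%), and 2 had an unadjusted p under 0.05, against 3.52% of all genes. In DESeq2's Wald test, too, 0 members passed. The 2 were *Cox5a* and *Cox7b*, named here after their values were seen. *Cox5a* had 26.1 and 27.3 CPM in labelled-knockout and 32.7, 33.8 and 31.3 CPM in control DMSO libraries, a log2 fold change of -0.29 (SE 0.09, adjusted p = 0.999). *Cox7b* had 44.1 and 49.4 CPM in labelled-knockout and 53.2, 57.0 and 51.8 CPM in control DMSO libraries, a log2 fold change of -0.21 (SE 0.08, adjusted p = 0.999). For 13 members both labelled-knockout libraries lay below all 3 control libraries, against 9.57% of all genes. Without control DMSO library 2, the DMSO library with the highest summed level, the median was -0.05. Short mRNAs in general leaned the same way. With all libraries, the median over all genes was -0.06 in the shortest length bin, which held 27 of the members, and 0.02 in the longest. The part of mRNA length in the members' values was not tested.

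With azoramide, 32 of the 37 tested members had a log2 fold change below 0, labelled knockout over control, against 49.8% of all genes, with a median of -0.06. Here, the median over all genes was -0.05 in the shortest length bin and 0.04 in the longest. Again 0 passed the test, in edgeR and in DESeq2, and 0 had an unadjusted p under 0.05, against 5.00% of all genes. The groups did not overlap for 2 members, *Atp5c1* and *Atp5e*, both lower in labelled-knockout islets, against 5.58% of all genes. *Atp5e* had 68.2, 66.8 and 66.9 CPM in labelled-knockout and 70.8, 74.1 and 76.4 CPM in control azoramide libraries, a log2 fold change of -0.13 (SE 0.07, adjusted p = 0.968). *Atp5c1* had 217, 213 and 188 CPM in labelled-knockout and 228, 218 and 222 CPM in control azoramide libraries, a log2 fold change of -0.11 (SE 0.06, adjusted p = 0.968).

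Whether the response to azoramide differed between genotypes was tested as an interaction, the azoramide effect in labelled-knockout islets minus that in control islets. The median over the tested members was 0.03 on the log2 scale, 0 members passed the test in edgeR or DESeq2, and 0 had an unadjusted p under 0.05, against 3.73% of all genes. Named after their values were seen, the 2 with the smallest p were *Cox5a* (0.18, SE 0.11) and *Uqcrfs1* (0.16, SE 0.10), both with adjusted p = 0.999. The 95% interval of the difference was widest for *Cox6a2*, from -0.62 to 0.65 on the log2 scale, and narrowest for *Cox4i1*, from -0.14 to 0.19, and the median SE over the members was 0.11.

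Other genes tied to the same complexes were mostly higher as well. Of 6 tested genes outside the naming rule, not all of them subunits, 5 were higher with azoramide in each genotype and 0 lower. Of all genes, 20.0% were called higher in labelled-knockout and 19.3% in control islets. *Ndufa4*, a complex IV subunit despite its name, had log2 fold changes of 1.15 and 1.06 in labelled-knockout and control islets, *Cycs*, cytochrome c, 1.09 and 0.84, *Atpif1*, the inhibitor of ATP synthase, 0.81 and 0.82, and *Cyc1*, cytochrome c1, 0.26 and 0.32. All 6 mitochondrially encoded subunits of these complexes were higher in both genotypes, with medians of 0.82 and 0.75. Their log2 fold changes ran from 0.63 for *mt-Cytb* to 0.97 for *mt-Atp8* in labelled-knockout islets and from 0.64 for *mt-Cytb* to 0.82 for *mt-Atp6* in control islets.

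Among 28 assembly factors of complex IV, 14 were higher and 1 lower in labelled-knockout islets, and 16 were higher and 0 lower in control islets, against the same 20.0% and 19.3% of all genes called higher, and 41.6% and 43.4% of those in the shortest length bin. *Slirp*, which stabilises mitochondrial mRNAs, had log2 fold changes of 0.96 and 1.002 in labelled-knockout and control islets, *Pet100* 1.07 and 0.90, *Cox16* 0.89 and 0.79 and *Cox17*, a copper chaperone, 0.76 and 0.66. The lower one was *Cox15*, an enzyme of heme A synthesis, with a log2 fold change of -0.41 (SE 0.10, adjusted p = 0.00294) in labelled-knockout and -0.14 (SE 0.09, adjusted p = 0.249) in control islets. For complex III, *Uqcc2* (0.59 and 0.67) and *Uqcc3* (0.36 and 0.68) of 6 factors were higher in both genotypes and 0 were lower. For complex V, 2 of 4 factors were higher in labelled-knockout and 1 of 4 in control islets, with *Tmem242* (0.71 and 0.76) in both, and 0 were lower. In complex II, which feeds electrons to complex III, *Sdhb* (0.76 and 0.71) and *Sdhd* (0.61 and 0.58) of 4 subunits were higher and *Sdha* (-0.07 and -0.07) was not called. The counts for complexes II, III and V rest on few genes and lie near the shares of all or of short genes, so nothing is read from them.

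Of 15 tested regulators of respiratory chain genes, 3 were higher and 3 lower in labelled-knockout islets, and 2 were higher and 3 lower in control islets, with medians of -0.08 and -0.12 on the log2 scale. These counts are near the shares over all genes, 20.0% higher and 19.8% lower in labelled-knockout and 19.3% higher and 19.8% lower in control islets, and show nothing particular to the regulators. The lower ones were *Hcfc1* (-0.70 and -0.59 in labelled-knockout and control islets), *Yy1* (-0.41 and -0.36) and *Polrmt*, the mitochondrial RNA polymerase (-0.34 and -0.35). *Tfam*, which packs mitochondrial DNA (0.24 and 0.28), and *Tfb2m* (0.27 and 0.37) were higher in both. *Ppargc1a*, the coactivator PGC-1 alpha, had a log2 fold change of 1.41 (SE 0.38, adjusted p = 0.012) in labelled-knockout and 0.02 (SE 0.33, adjusted p = 0.965) in control islets, and the difference between genotypes did not pass the interaction test. The transcription factors *Nrf1* (-0.19 and -0.21) and *Gabpa* (-0.17 and -0.12), known to bind promoters of many respiratory chain genes, were not called.

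Since the members differed together between treatments, their promoters were searched for the letters those factors bind, in windows from 250 bases before to 30 bases after the transcription start in RefSeq (GRCm38.p6). A window was found for 33 of the 43 members, among them 29 of the tested ones with 32 windows. Both strands were searched, and each share is set against all 32851 windows of the same length. Those windows were not limited to the genes tested here. The NRF1 core GCATGCGC, which reads as itself when flanked as GCGCATGCGC and then counts on both strands, occurred in 15.6% of member windows against 2.58% of all, and CCGGAAG, a core of the ETS family to which GABPA belongs, in 34.4% against 8.45%. AAGATGG, a YY1 core, occurred in 12.5% against 5.61%, and AAGGTCA, a core of estrogen-related receptors, in 9.38% against 4.46%. GGGCGG, bound by SP1, stood in 31.2% against 34.7%, CCAAT in 50.0% against 36.1% and TATAAA in 6.25% against 13.1%. A match describes the letters and does not show binding.

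The windows printed here are of 3 members, a small subunit from each complex, that hold both the NRF1 and the ETS letters, and of *Uqcrc1*, the member nearest 0, which holds none of the letters searched. The same was true of 5 members in all, the others being *Atp5o*, *Cox5b*, *Uqcrfs1* and *Atp5d*. The printed windows run 5′ to 3′ on the gene's strand, and capitals mark matches to the NRF1, ETS and YY1 letters on either strand.
Uqcr11 chr10:80406792-80407071, minus strand: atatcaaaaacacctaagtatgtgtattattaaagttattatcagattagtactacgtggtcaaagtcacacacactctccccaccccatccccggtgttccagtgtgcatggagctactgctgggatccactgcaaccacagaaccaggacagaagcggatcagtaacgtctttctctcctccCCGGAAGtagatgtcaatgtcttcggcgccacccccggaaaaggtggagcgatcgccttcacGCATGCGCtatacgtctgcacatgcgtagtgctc
Cox6a1 chr5:115348929-115349208, minus strand: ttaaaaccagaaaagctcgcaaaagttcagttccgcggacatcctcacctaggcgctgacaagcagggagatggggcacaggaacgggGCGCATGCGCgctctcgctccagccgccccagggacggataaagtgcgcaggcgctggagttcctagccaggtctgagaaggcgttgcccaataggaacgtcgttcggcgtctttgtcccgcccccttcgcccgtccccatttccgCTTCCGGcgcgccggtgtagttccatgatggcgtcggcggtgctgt
Atp5k chr5:108434370-108434649, minus strand: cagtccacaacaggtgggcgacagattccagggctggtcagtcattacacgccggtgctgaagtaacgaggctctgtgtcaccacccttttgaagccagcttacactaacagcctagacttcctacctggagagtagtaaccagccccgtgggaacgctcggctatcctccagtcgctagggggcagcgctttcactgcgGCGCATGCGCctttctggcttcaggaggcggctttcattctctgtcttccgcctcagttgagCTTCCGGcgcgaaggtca
Uqcrc1 chr9:108936398-108936677, plus strand: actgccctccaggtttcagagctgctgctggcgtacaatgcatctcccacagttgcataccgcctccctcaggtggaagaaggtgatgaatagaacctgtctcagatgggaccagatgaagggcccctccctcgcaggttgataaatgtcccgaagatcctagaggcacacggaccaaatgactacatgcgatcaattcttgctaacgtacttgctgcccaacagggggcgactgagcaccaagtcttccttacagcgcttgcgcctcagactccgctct
The 3 genes with matches had log2 fold changes of 0.73 and 0.80 (*Uqcr11*), 0.71 and 0.70 (*Cox6a1*) and 0.90 and 0.86 (*Atp5k*) in labelled-knockout and control islets, near the median of the tested members. The windows without matches, besides that of *Uqcrc1*, were those of *Atp5o* (0.89 and 0.86), *Cox5b* (0.83 and 0.74), *Uqcrfs1* (0.34 and 0.19) and *Atp5d* (0.22 and 0.23). Whether the letters go with the size of the difference was not tested.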

How the data were processed

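RNA counts of 11 islet libraries were read as the authors deposited them: raw read counts per gene, 32285 genes, with no normalization, as the values show. Per the submitters' processing notes, STAR 2.7.2a and mm10 were used, and DESeq2 is listed without a role. How reads were counted, by which annotation and with which strand setting, is not given in the sources used here; overlapping genes and near-identical copies may therefore share reads. Groups and replicate numbers came from the sample titles.

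Counts were tested in R 4.3.3 with edgeR 4.0.16 (robust quasi-likelihood test, TMM scaling, filterByExpr by group, 15093 genes left). The 4 groups were fitted together over 11 libraries. P-values were adjusted by Benjamini-Hochberg over all genes tested, with a threshold of 0.05, and 95% intervals are log2 fold changes ± 1.96 SE. The step was tested on simulated data. Totals of 16832800 to 19501813 counts per library leave little counting error for most tested members. Replicates within a group differed by more than sampling noise. Gene coordinates, exonic length, GC content and mRNA length (the median over basic coding transcripts) came from GENCODE M21 (GRCm38), in which 32158 of the identifiers had a length; shared stretches are 100 bases long. Promoter windows are from RefSeq (GRCm38.p6).

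Members and lists were chosen with earlier results of these data known. Values in every library are given for the member of highest level per length in each complex, the 2 largest and 2 smallest differences for azoramide in control islets, and isoform sets; others were added after their values were seen. Alternatives were DESeq2 size factors, plain library totals, no filter, the DESeq2 1.42.0 Wald test, an exonic length and GC offset, a replicate block, the compared groups alone and leaving out each library; leaving out 2 libraries together and an mRNA length and GC offset were added after the data were seen.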

Additional observations from a re-analysis of the deposited data

How the results depend on the processing

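Counts of members higher with azoramide stayed within 1.5 times under all alternatives: 29 to 36 in labelled-knockout and 29 to 36 in control islets. Shares of all genes called were not counted under the alternatives. Leaving out 1 library at a time gave 32 to 35 members higher in labelled-knockout and 31 to 36 in control islets, with medians of 0.71 to 0.79 and 0.72 to 0.81 on the log2 scale; the genotype medians ran from -0.12 to -0.05 with DMSO and from -0.10 to -0.02 with azoramide, and that of the interaction from -0.01 to 0.06, with 0 members called. Plain library totals shifted the median of all genes by -0.16 and -0.19, gave medians over the members of 0.58 in labelled-knockout and 0.59 in control islets, and called 1 member lower in labelled-knockout islets, *Uqcrc1*. The exonic length and GC offset gave 0.50 and 0.54, and the mRNA length and GC offset 0.42 and 0.40.

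Direction turned for few members. With the exonic offset, labelled-knockout values were -0.021 for *Cox7a2l*, 0.15 for *Uqcrc1* and -0.031 for *Uqcrfs1*, and control values -0.0045 for *Cox7a2l* and -0.16 for *Uqcrfs1*. With the mRNA offset, *Atp5l* was at -0.14 in labelled-knockout and -0.074 in control islets, and *Cox5a* at -0.035 and *Uqcrfs1* at -0.033 in control islets. *Uqcrc1* in control islets was at -0.12 with plain totals, -0.0030 without control azoramide library 2 and -0.0034 without control DMSO library 3, the lowest with 1 library left out; the highest was 0.12. The cause was not tested.

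With the replicate number as a block, 35 members were higher in each genotype, with medians of 0.79 and 0.76; in labelled-knockout islets *Cox6a2* lost its call (0.45, adjusted p = 0.131) and *Atp5d* gained one (0.30, adjusted p = 0.0232), and in control islets *Uqcrfs1* lost its call (0.19, adjusted p = 0.0529). Same-numbered libraries correlated at 0.04 and -0.14 in labelled-knockout and 0.06, 0.11 and -0.02 in control islets. Not every library correlated best with its own number. This check cannot decide whether same-numbered libraries were pairs, because libraries were compared as differences from their group mean. The 2 labelled-knockout DMSO libraries therefore mirror each other, with 0.04 and -0.04 against azoramide library 1. The submitters' names for the count columns share genotype letter and number between azoramide and DMSO. Whether such libraries came from the same islet pool is not stated, and the main fit did not use pairs. At this depth the 6 untested isoforms could not be compared, and *Cox6a2* had the widest errors.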
